A study of Mus musculus with 6 samples.

Results

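The tubular injury genes described here are 10 genes that injured renal tubular epithelial cells are known to switch on, namely Havcr1, Lcn2, Spp1, Clu, Vcam1, Cd44, Krt8, Krt18, Cdkn1a and Sox9. The list is fixed by symbol and its rule uses no measured value, though earlier results of these data were known when it was drawn up, and all 10 were found among the 46095 genes of the count table. RNA-seq was performed on primary tubular epithelial cells (PTECs) isolated from the kidneys of mice aged 10 weeks on a C57 background. The 3 libraries labelled VHL-KO came from mice with floxed VHL and Ksp-Cre, and the 3 libraries labelled VHL-KO;SETD2-KO came from mice with floxed VHL, floxed Setd2 and Ksp-Cre. Both groups therefore share the Cre transgene and the loss of VHL, and neither is a wild type. Ksp-Cre is driven by the promoter of Cdh16, a cadherin of tubular epithelium, so deletion is limited to cells in which that promoter has been active. The comparison asks how the loss of Setd2, a histone methyltransferase, alters tubular cells that already lack VHL.

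When a tubular cell is injured it loses part of its transport programme, flattens and turns on genes that a resting tubule keeps low. Some of these encode shed or secreted proteins used as urinary markers of kidney injury, others encode adhesion receptors, keratins of simple epithelia, a cell cycle inhibitor, or a transcription factor of regenerating tubule. In repair most of these genes are known to return to low levels, and in failed repair some stay on. Because the samples are bulk RNA, fewer cells of a type and less RNA per cell cannot be told apart.

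The targeted gene was examined first, since it checks the labels. Setd2 was measured at 71.5, 73.9 and 12.3 CPM (counts scaled to a common library size and by TMM factors) in VHL-KO-labelled libraries 1, 2 and 4, and at 79.6, 57.4 and 89.6 CPM in VHL-KO;SETD2-KO-labelled libraries 2, 3 and 4. Setd2 was thus not lower under the label that names its deletion (log2 fold change 0.52, SE 0.64, adjusted p = 0.787, edgeR), and whole-gene counts do not show whether a deleted exon was missing. All directions below are therefore directions between labels, with VHL-KO as the reference. Vhl was detected in every library (11.9 to 25.8 CPM), as was Cdh16 (332 to 2257 CPM).

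The libraries held 11168552 to 17883466 counts. The library labelled VHL-KO 4 stood apart from the rest: mitochondrial genes took 11.3% of its counts against 25.9% to 36.4% elsewhere, and its rank correlation with the other libraries was 0.717 to 0.765 against 0.937 to 0.986 among them. The library labelled VHL-KO;SETD2-KO 3 held 11704 counts of Xist, a transcript of the inactive X chromosome, against 0 to 4 in each of the others. Markers of the proximal tubule summed to 7128 to 29311 CPM and those of the thick limb and distal tubule to 1579 to 5425 CPM. Tubular epithelium was thus present in every library, but podocyte markers (1437 to 4836 CPM) and endothelial markers (1394 to 4213 CPM) were found as well. Member results that rest on either library that stood apart are given with and without it, and list counts also without VHL-KO 4. Values of single list genes and marker sums are given for all 6 libraries only.

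Ordered by level per kilobase of exon (mean CPM per kb over the 6 libraries), the 10 genes spanned a wide range. Spp1 stood first at 215 CPM per kb, followed by Clu at 72.9, Krt8 at 51.3 and Krt18 at 12.8 CPM per kb. Cdkn1a, Cd44 and Vcam1 followed at 6.52, 2.38 and 1.22 CPM per kb, and Lcn2, Havcr1 and Sox9 closed the order at 0.876, 0.409 and 0.351 CPM per kb. Spp1 lay above 99.1% of the 13811 tested genes with a known length and Sox9 above 6.78% of them, so the list joins abundant transcripts with some close to the limit of detection. Krt8 exceeded Krt18, and Cdkn1a exceeded Cd44, in all 6 libraries. Krt18 and Cdkn1a changed places between libraries (Krt18 was higher in 3 of 6), as did Havcr1 and Sox9 (Havcr1 was higher in 3 of 6), so these neighbours had no fixed order. In the other 5 neighbouring pairs the first gene was higher in 4 or 5 of the 6 libraries.

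**Figure D1:**
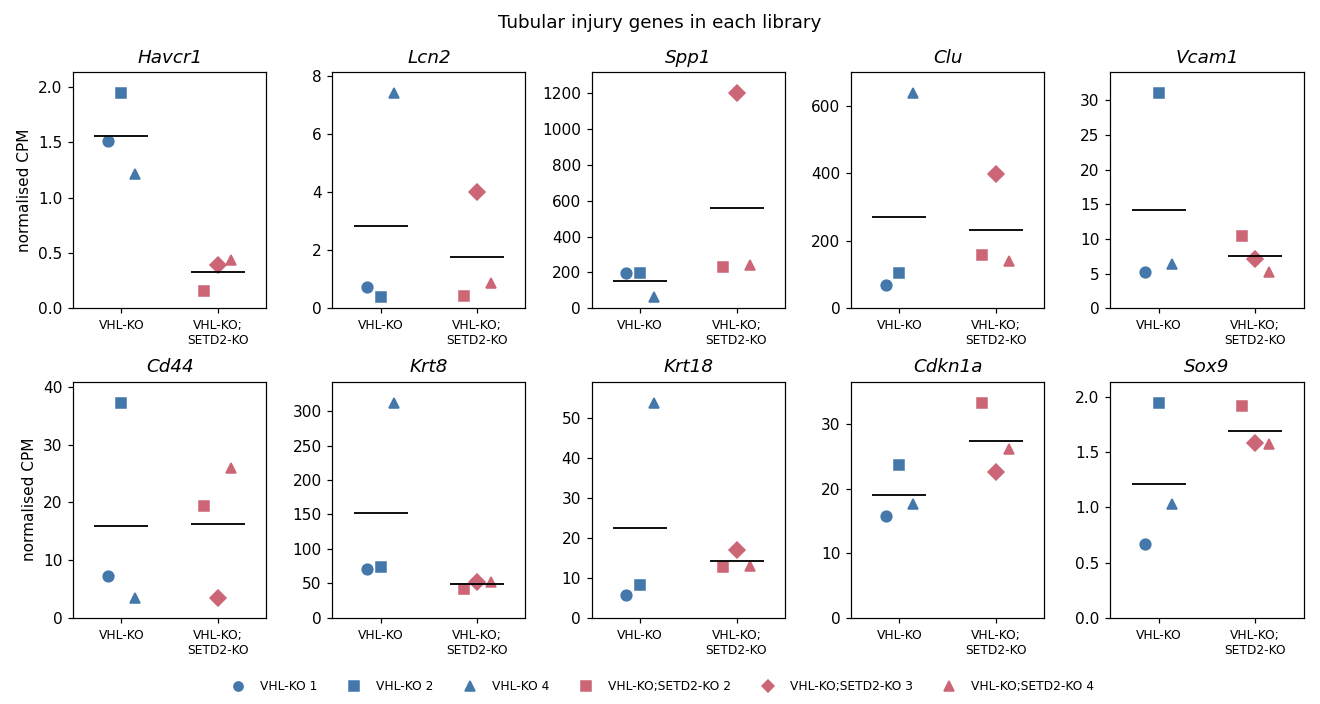
Level of each tubular injury gene in each library, in normalised CPM on linear axes that start at 0, with 1 panel per gene, 1 marker per library and a line at the mean of each label. Blue markers are libraries labelled VHL-KO and red markers libraries labelled VHL-KO;SETD2-KO. Havcr1 and Krt8 were lower, and Spp1 higher, in every red marker than in every blue one, and the library labelled VHL-KO 4 held the highest value of Lcn2, Clu, Krt8 and Krt18.

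Between the labels, 3 of the 10 genes passed an unadjusted p under 0.05 with a fold change of at least 1.5 in edgeR. Spp1 was higher with the VHL-KO;SETD2-KO label, and Havcr1 and Krt8 were lower. Among all 14611 genes tested, 2.65% passed the same rule as higher and 4.68% as lower. With an adjusted p under 0.05 and the same fold change, no member passed, a threshold that 0% of all tested genes passed as higher and 0.00684% as lower. The same 3 genes were the only members whose groups did not overlap, against 9.62% of tested genes that lay wholly higher and 11% wholly lower. The members did not move one way: 4 had a positive and 6 a negative log2 fold change, beside 7374 and 7237 of all 14611 genes tested. Their median was -0.44, beside 0.0095 for all tested genes. By a fold change of at least 1.5 alone, 1 member was higher (18.7% of tested genes) and 5 were lower (25.2%).

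**Figure D2:**
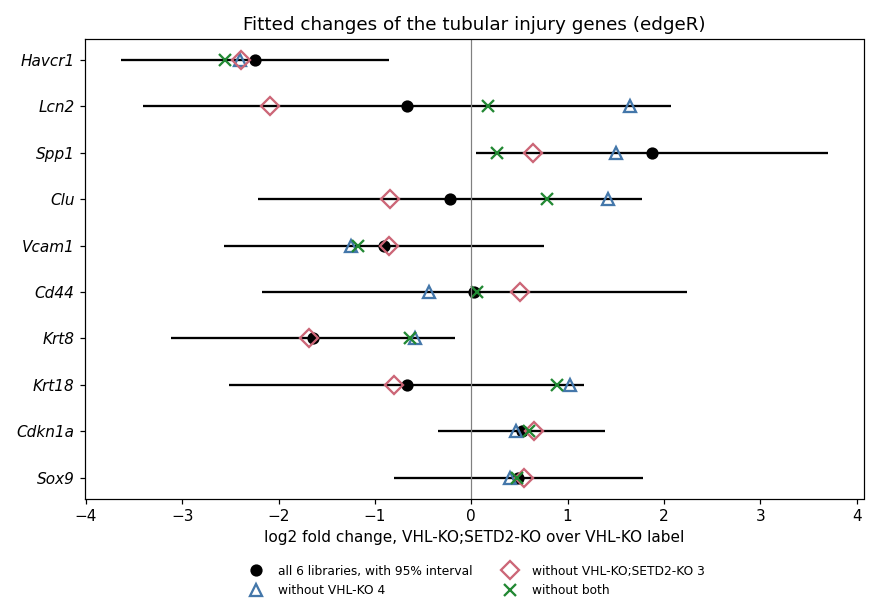
Log2 fold change of each tubular injury gene between the labels (edgeR, VHL-KO as the reference) on the horizontal axis, with the fit on all 6 libraries and its 95% interval in black, and the fits without VHL-KO 4, without VHL-KO;SETD2-KO 3 and without both as open markers and crosses. Without VHL-KO 4, Lcn2, Clu and Krt18 moved from below 0 to above it, whereas Havcr1 stayed between -2.56 and -2.25 in the 4 fits.

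The counts changed with the libraries that stood apart. Without VHL-KO 4, Clu and Krt18 passed the unadjusted rule as higher (8.29% of tested genes did) and Havcr1 as lower (7.14%), and none passed with adjustment (0% and 0.00667%). Then 3 members lay wholly higher, namely Spp1, Clu and Krt18 (20.1% of tested genes), and Havcr1 and Krt8 lay wholly lower (21.4%). Without VHL-KO;SETD2-KO 3, 0 members passed as higher (2.37%) and Havcr1 alone as lower (2.20%). Without both, a fit added after the data were seen, Clu, Krt18 and Cdkn1a passed as higher (13.4%) and Havcr1 and Krt8 as lower (10.4%), and all of these but Cdkn1a passed with adjustment (8.90% and 7.90%). In that fit 4 members lay wholly higher (32.7%) and 2 wholly lower (32.4%). Havcr1 passed as lower in each of these fits and in the fit on all libraries. These fits share libraries, so the repeated passes are not separate support. In the fit on all libraries, and in each of these, Havcr1 entered the test only through its counts under the VHL-KO label. Its 3, 7 and 7 counts under the other label lay under the limit of the filter on low counts. That limit is 10 counts at the median library size.

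By DESeq2 on all libraries, 1 member passed the unadjusted rule as higher (2.86%) and 2 as lower (7.75%). With adjustment 0 passed (0.00684% and 0.342%), but only 2 of the 10 members had an adjusted p. Genes without an adjusted p count as not passed in these shares. DESeq2 without VHL-KO 4, also added later, passed 2 members as higher (9.50%) and 1 as lower (7.29%), and with adjustment Clu and Krt18 as higher (3.56%) and 0 as lower (4.69%), where 9 of the 10 members had an adjusted p and Havcr1 had none. limma-voom with sample quality weights, another later choice, passed 2 members as higher (14.5%) and 2 as lower (10.5%). With adjustment it kept Krt18 as higher (9.94%) and Havcr1 and Krt8 as lower (8.25%).

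Among the surface and secreted markers, Havcr1 was lower with the VHL-KO;SETD2-KO label, at counts close to the limit of detection. Havcr1 encodes kidney injury molecule 1 (KIM-1), a phosphatidylserine receptor that lets injured proximal tubule cells take up dying neighbours. It was counted 25, 21 and 13 times in VHL-KO-labelled libraries 1, 2 and 4 and 3, 7 and 7 times in VHL-KO;SETD2-KO-labelled libraries 2, 3 and 4, that is 1.52, 1.94 and 1.22 CPM against 0.159, 0.394 and 0.439 CPM. Every library labelled VHL-KO lay above every one labelled VHL-KO;SETD2-KO (log2 fold change -2.25, SE 0.61, 95% interval -3.64 to -0.85, adjusted p = 0.625). Pooled over libraries, 59 counts stood against 17, a rate 4.80 times as high (95% counting interval 2.76 to 8.78), and this interval covers counting error only. Havcr1 passed the filter on low counts through the 3 libraries labelled VHL-KO alone, so a test of it was made only because it was high there, and the lowest library held 3 counts, the number taken here as the limit of detection. Leaving out 1 library at a time kept its log2 fold change between -2.49 and -1.89. Without both libraries that stood apart it was -2.56 with an adjusted p of 0.0291, and adjusted p ranged from 0.00902 to 0.982 over its alternatives. The fit without both, too, tested Havcr1 only because of its counts under the VHL-KO label. Between the labels, though not within them, it differed in the same direction as the markers of the proximal tubule, whose sum was 16264 to 29311 CPM under the VHL-KO label and 7128 to 10230 CPM under the other, with 9 of the 10 markers below 0 on the log2 fold scale and 5 not overlapping. Their part in the Havcr1 result was not tested.

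Lcn2, which encodes neutrophil gelatinase-associated lipocalin (NGAL), a secreted protein that binds bacterial siderophores, did not separate the labels. It was measured at 0.727, 0.370 and 7.39 CPM in VHL-KO-labelled libraries 1, 2 and 4, and at 0.425, 4.00 and 0.878 CPM in VHL-KO;SETD2-KO-labelled libraries 2, 3 and 4. The 2 libraries that stood apart were the only ones above 1 CPM, 1 under each label, and the groups overlapped (log2 fold change -0.67, SE 1.19, adjusted p = 0.842). Without the library labelled VHL-KO 4 the log2 fold change was 1.64, and leaving out VHL-KO;SETD2-KO 3 gave -2.09. The summed collecting duct markers were also highest in these 2 libraries, at 570 and 287 CPM against 54.1 to 86.6 CPM in the other 4. Aqp2, Aqp3, Fxyd4, Hsd11b2, Scnn1g and Slc4a1 were each highest in these 2. Atp6v1g3 was instead lowest in VHL-KO 4 (2.71 CPM), and Foxi1 there (5.42 CPM) lay below VHL-KO;SETD2-KO 2 (5.63 CPM). The part of the collecting duct was not tested. Neutrophils also make Lcn2. The 7 neutrophil markers summed to 5.8 to 7.68 CPM with the VHL-KO label, lowest in VHL-KO 4, and to 7.94 to 18.1 CPM with the other. Of these markers 4 were tested, all with a log2 fold change above 0, and S100a8 (1.48) and S100a9 (1.77) passed the unadjusted rule as higher, while Ly6g and Mpo had 0 counts in every library. Their part in the Lcn2 values was not tested.

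Spp1 encodes osteopontin, a secreted phosphoprotein that binds integrins and CD44 and is made by thick limb and injured tubule. Its levels were 199, 195 and 61.7 CPM in VHL-KO-labelled libraries 1, 2 and 4 and 231, 1199.8 and 243 CPM in VHL-KO;SETD2-KO-labelled libraries 2, 3 and 4. The groups did not overlap (log2 fold change 1.88, SE 0.80, adjusted p = 0.625), but the size rested on both libraries that stood apart, which held the lowest and the highest value. Without the library labelled VHL-KO;SETD2-KO 3 the log2 fold change was 0.65, without VHL-KO 4 it was 1.5, and without both it was 0.27, under the 1.5-fold threshold. In the remaining 4 libraries Spp1 thus lay between 195 and 243 CPM. The thick limb and distal tubule markers summed to 5425 CPM in VHL-KO;SETD2-KO 3 and to 5350 CPM in VHL-KO 4, where Spp1 was lowest, and to 1579 to 2536 CPM in the others. Of these markers, Slc12a1 (79.2 and 370 CPM) and Calb1 (42.5 and 565 CPM) were lowest in VHL-KO 4 and highest in VHL-KO;SETD2-KO 3, as Spp1 was. Umod, Slc12a3 and Pvalb were instead highest in VHL-KO 4, and Cldn16 and Egf were lowest in VHL-KO 1. The part of these markers in the Spp1 values was not tested.

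Clu encodes clusterin, a secreted chaperone. It was measured at 70.0, 103 and 637 CPM in VHL-KO-labelled libraries 1, 2 and 4, and at 156, 397 and 140 CPM in VHL-KO;SETD2-KO-labelled libraries 2, 3 and 4. The highest value of all and the pair of lowest values thus stood under the same label, and with all libraries no difference was found (log2 fold change -0.22, SE 0.87, adjusted p = 0.931). Without the library labelled VHL-KO 4 every remaining library labelled VHL-KO;SETD2-KO was higher (log2 fold change 1.42, adjusted p = 0.214), and without both libraries that stood apart the log2 fold change was 0.78 (adjusted p = 0.0322). DESeq2 without VHL-KO 4 gave an adjusted p of 0.045, and over all alternatives adjusted p for Clu ranged from 0.0322 to 0.997. Clu was highest in the same 2 libraries as the collecting duct sums given above.

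Neither adhesion receptor passed the test, and both were highest in the library labelled VHL-KO 2. Vcam1 encodes vascular cell adhesion molecule 1, an integrin ligand of activated endothelium that is also known from tubule cells that fail to repair. It was measured at 5.15, 31.0 and 6.36 CPM in VHL-KO-labelled libraries 1, 2 and 4, and at 10.4, 7.04 and 5.27 CPM in VHL-KO;SETD2-KO-labelled libraries 2, 3 and 4. Apart from VHL-KO 2 the groups covered the same low range (log2 fold change -0.90, SE 0.72, adjusted p = 0.693), and without it the log2 fold change was 0.41. Cd44, which encodes the receptor for hyaluronan and for osteopontin, was measured at 7.21, 37.2 and 3.37 CPM under the VHL-KO label and at 19.3, 3.49 and 26.0 CPM under the other. Its groups overlapped over their whole range (log2 fold change 0.03, SE 0.96, adjusted p = 0.993), and without the library labelled VHL-KO 2 the log2 fold change was 1.62. Endothelial markers summed to 1746 CPM in the library labelled VHL-KO 2, which held the highest Vcam1, and to 4213 and 3424 CPM in VHL-KO;SETD2-KO 2 and 4. Macrophage markers summed to 145, 384 and 763 CPM in VHL-KO-labelled libraries 1, 2 and 4. Under the other label they summed to 272, 143 and 307 CPM in libraries 2, 3 and 4. Apart from VHL-KO 4, where Cd44 was lowest and the marker Cd74 alone gave 457 CPM, the sums ranked as Cd44 did. The part of these cell types in the Vcam1 and Cd44 values was not tested.

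Krt8 and Krt18 encode the type II and type I keratins that pair into the intermediate filaments of simple epithelia, and both were highest in the library labelled VHL-KO 4. With all 6 libraries both log2 fold changes were below 0, and without VHL-KO 4 they had opposite signs. Krt8 was measured at 70.8, 74.5 and 312 CPM in VHL-KO-labelled libraries 1, 2 and 4, and at 41.8, 52.4 and 52.0 CPM in VHL-KO;SETD2-KO-labelled libraries 2, 3 and 4. The groups did not overlap (log2 fold change -1.64, SE 0.64, adjusted p = 0.625). Without the library labelled VHL-KO 4 the log2 fold change was -0.58 (adjusted p = 0.133), just short of the 1.5-fold threshold of 0.585, so that library set most of the size but not the order of the groups. Without both libraries that stood apart it was -0.63 (adjusted p = 0.0232), and adjusted p ranged from 0.0232 to 0.982 over the alternatives. Krt18 was measured at 5.82, 8.14 and 53.9 CPM under the VHL-KO label and at 12.6, 17.0 and 12.9 CPM under the other. The highest and the pair of lowest values again stood under the same label (log2 fold change -0.67, SE 0.80, adjusted p = 0.782). Without the library labelled VHL-KO 4, Krt18 was higher with the VHL-KO;SETD2-KO label (log2 fold change 1.03, adjusted p = 0.122), and DESeq2 without that library gave an adjusted p of 0.0161. Without both libraries that stood apart the log2 fold change was 0.89 (adjusted p = 0.0336), and over all alternatives adjusted p for Krt18 ranged from 0.0161 to 0.982.

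Since filaments need both keratins, the ratio of Krt8 to Krt18 counts was examined within each library, a comparison chosen after the values were seen. Such a ratio does not depend on library size or on scaling. There were 12.2, 9.15 and 5.79 Krt8 counts for each Krt18 count in VHL-KO-labelled libraries 1, 2 and 4, and 3.31, 3.08 and 4.02 in VHL-KO;SETD2-KO-labelled libraries 2, 3 and 4. The 95% counting intervals closest to each other were 5.30 to 6.33 in VHL-KO 4 and 3.45 to 4.71 in VHL-KO;SETD2-KO 4, and these intervals cover counting error only, not the spread between mice. On the log2 scale the ratio averaged 3.11 ± 0.54 (SD, n = 3) with the VHL-KO label and 1.79 ± 0.20 (SD, n = 3) with the other, a 2.50-fold difference. The groups did not overlap, and no test is given, since the ratio was picked for that. Leaving out each library in turn gave differences from -1.61 to -1.08. Since the groups did not overlap, this could not reverse the sign, so the range describes the size only. Another keratin pair, Krt7 over Krt19, gave 7.07, 11.9 and 3.77 against 9.04, 7.33 and 10.1, and overlapped. Krt8 overlaps the lincRNA Gm36026 on the opposite strand, which held 0 to 2 counts per library, and the processed pseudogene Krt8-ps held 1 to 16 counts, so reads listed there were few beside the 787 to 3333 of Krt8. Whether reads shared with such copies were dropped or assigned is not given in the sources used here.

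**Figure D3:**
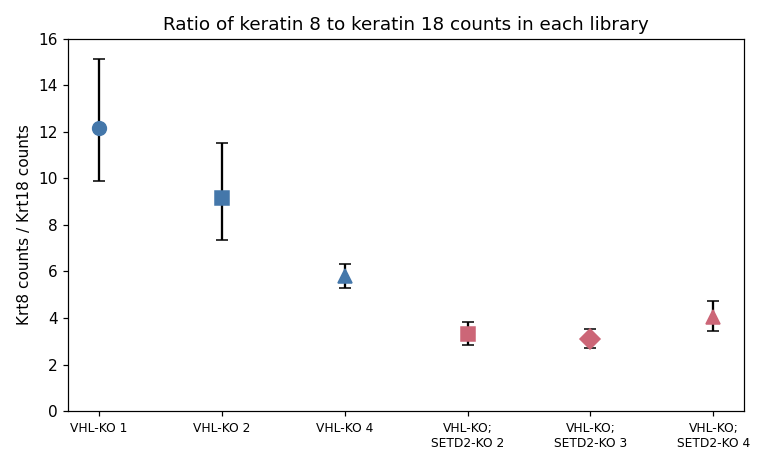
Krt8 counts divided by Krt18 counts in each library on a linear axis that starts at 0, with 95% exact binomial counting intervals as bars. VHL-KO-labelled libraries (blue) lay between 5.79 and 12.2, VHL-KO;SETD2-KO-labelled libraries (red) between 3.08 and 4.02.

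The keratin genes are neighbours. Krt8 lies at chr15:101996698-102004482 on the minus strand and Krt18 at chr15:102028180-102032027 on the plus strand of GRCm38, with 23697 bp between them, so their starts face one another. The bases upstream of both starts are shown because the neighbours differed in their ratio, together with those of Spp1 (chr5:104435118-104441050, plus strand), the only member that passed the unadjusted rule as higher with all 6 libraries. Sequences are from RefSeq (GRCm38.p6), 5′ to 3′ on the strand of the gene, and capitals mark the motif TATAAA. The windows are chr15:102004483-102004592 for Krt8, chr15:102027966-102028179 for Krt18 and chr5:104434861-104435110 for Spp1.
Krt8: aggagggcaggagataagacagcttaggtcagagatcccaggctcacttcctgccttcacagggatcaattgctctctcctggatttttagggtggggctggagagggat
Krt18: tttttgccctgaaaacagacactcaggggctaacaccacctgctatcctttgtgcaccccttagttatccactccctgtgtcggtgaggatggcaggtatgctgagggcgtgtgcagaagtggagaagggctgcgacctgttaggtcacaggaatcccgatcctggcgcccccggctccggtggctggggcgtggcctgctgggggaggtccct
Spp1: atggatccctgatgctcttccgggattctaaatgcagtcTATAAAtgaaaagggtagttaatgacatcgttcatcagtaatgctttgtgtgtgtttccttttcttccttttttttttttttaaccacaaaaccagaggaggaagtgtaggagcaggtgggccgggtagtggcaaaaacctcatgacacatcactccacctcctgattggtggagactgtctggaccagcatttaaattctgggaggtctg
The motifs searched, on both strands, were ACGTG (the core bound by hypoxia-inducible factors), TGANTCA (the AP-1 site), TATAAA and GGGCGG. They occur in 16.6%, 6.75%, 12.4% and 32.7% of 32851 RefSeq windows of 250 bases. None of these was found upstream of Krt8 or Krt18. TATAAA was found in the Spp1 window shown above, but not in the other Spp1 window, chr5:104435942-104436191. Of the other members with an entry, ACGTG was found in the window of Cd44 and in 2 of 3 windows of Havcr1, and GGGCGG in the window of Lcn2 and in 1 of 2 windows of Cdkn1a, with no TGANTCA in any. A match in letters does not show that a factor was bound.

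Neither nuclear regulator passed the test. Cdkn1a encodes p21, the cyclin-dependent kinase inhibitor induced by p53, and was measured at 15.8, 23.7 and 17.6 CPM in VHL-KO-labelled libraries 1, 2 and 4, and at 33.3, 22.6 and 26.1 CPM in VHL-KO;SETD2-KO-labelled libraries 2, 3 and 4. Only VHL-KO 2 and VHL-KO;SETD2-KO 3 crossed, and the difference did not pass (log2 fold change 0.52, SE 0.38, adjusted p = 0.664). Its direction was kept in every alternative, from 0.37 to 0.72. Sox9, a transcription factor that tubule cells re-express during regeneration, was measured at 0.667, 1.94 and 1.03 CPM against 1.91, 1.58 and 1.57 CPM. The groups overlapped through VHL-KO 2 (log2 fold change 0.49, SE 0.56, adjusted p = 0.774), and it rested on 11 to 36 counts per library.

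The 10 genes did not share a pattern over libraries. The library labelled VHL-KO 2 held the highest CPM of 4 members (Havcr1, Vcam1, Cd44 and Sox9) and VHL-KO 4 that of another 4 (Lcn2, Clu, Krt8 and Krt18), whereas VHL-KO 1 held the lowest of 5. The closest members, by the root mean square difference of log2 CPM centred per gene over 6 libraries, were Cdkn1a with Sox9 (0.247) and Clu with Krt18 (0.369). For comparison, the closest other genes included Apeh for Krt8 (0.0822), A430105I19Rik for Cdkn1a (0.0944), Pkm for Krt18 (0.114), Hk2 for Sox9 (0.140), Lilr4b for Cd44 (0.238), Acsl1 for Spp1 (0.265), Gm35761 for Havcr1 (0.331), Syt12 for Lcn2 (0.409) and Cd300ld for Vcam1 (0.449). The closest gene of each of the 10 members was replaced by another when VHL-KO 4 was left out, the only library whose removal was tried here.

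**Figure D4:**
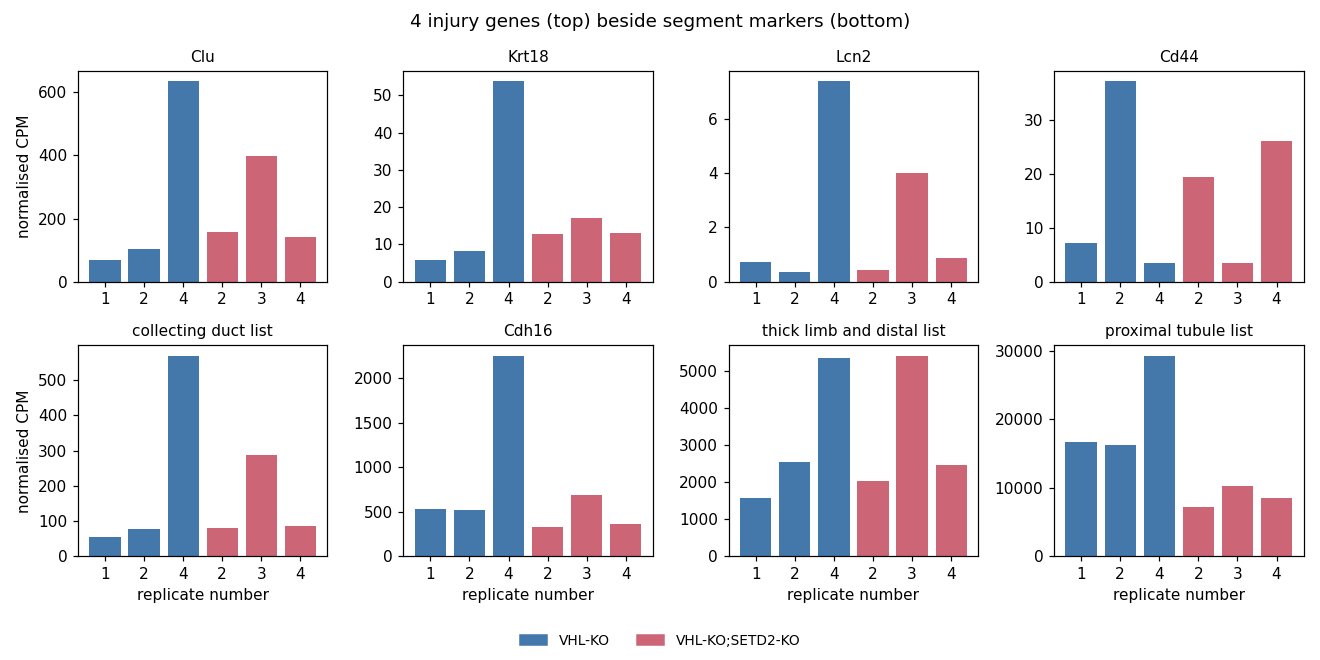
Normalised CPM in each library, on linear axes that start at 0, of Clu, Krt18, Lcn2 and Cd44 (top row) and of the summed collecting duct list, Cdh16, the thick limb and distal list and the proximal tubule list (bottom row). Bars are single libraries by replicate number, blue for the VHL-KO and red for the VHL-KO;SETD2-KO label. Clu and Lcn2 were highest in VHL-KO 4 and VHL-KO;SETD2-KO 3, as were the collecting duct sums (570 and 287 CPM), whereas Cd44 was low in both (3.37 and 3.49 CPM).

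Other genes of the injury programme were taken from lists, each read against the same shares of all tested genes. In the damage response list, 3 of 23 tested genes passed the unadjusted rule as higher and 0 as lower, with a median log2 fold change of -0.087. Without VHL-KO 4 these counts were 8 and 1, beside the shares of 8.29% and 7.14% given above. They were Anxa1 and Anxa3, which encode annexins, calcium-dependent membrane-binding proteins (log2 fold change 1.37, SE 0.51, and 1.43, SE 0.50), and Cd24a, a surface sialoglycoprotein of tubular progenitors (1.59, SE 0.64). Anxa1 was measured at 23.7, 30.5 and 10.8 CPM against 79.2, 37.4 and 51.4 CPM, and Cd24a at 157, 238 and 48.7 CPM against 561, 264 and 511 CPM. In each of the 3 the groups did not overlap, the library labelled VHL-KO 4 was lowest, and VHL-KO;SETD2-KO 3 was the lowest of its label. Podocyte markers summed to 1437, 1928 and 2089 CPM against 4836, 1971 and 4296 CPM. Endothelial markers summed to 1494, 1746 and 1411 CPM against 4213, 1394 and 3424 CPM. The podocyte marker Synpo and the endothelial marker Plvap were instead highest in VHL-KO 4 (725 and 198 CPM). The part of these cell types was not tested. Myc, the growth regulator, was the 1 gene of the list that lay wholly lower (8.00, 12.7 and 8.23 CPM against 5.63, 6.93 and 7.09 CPM), without passing the test (adjusted p = 0.664).

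In the list of failed repair and inflammation, 0 of 22 tested genes passed as higher and 1 as lower, or 4 and 3 without VHL-KO 4. This was Il34, a cytokine that binds the receptor of macrophage colony-stimulating factor, at 30.5, 19.4 and 71.0 CPM against 15.1, 8.67 and 14.9 CPM (log2 fold change -1.64, SE 0.56, adjusted p = 0.625). Sema5a, a semaphorin, lay wholly higher at 105, 132 and 24.5 CPM against 238, 168 and 260 CPM, and did not pass (adjusted p = 0.625).

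Of the p53 targets and cell cycle inhibitors, to which Cdkn1a belongs in function, 0 of 18 tested genes passed in either direction and the median log2 fold change was 0.12. Without VHL-KO 4, 2 passed as higher and 0 as lower. The smallest p-values were those of Sesn2, a stress-induced inhibitor of mTORC1 signalling (39.8, 25.2 and 84.1 CPM against 20.9, 29.4 and 17.9 CPM), and of Eda2r, a receptor of ectodysplasin A2 (1.15, 1.3 and 0.468 CPM against 2.66, 1.35 and 2.76 CPM). Eda2r and Cdkn1b, which encodes the inhibitor p27, lay wholly higher. Cdkn1b was measured at 33.6, 31.4 and 11.6 CPM against 39.4, 41.2 and 42.7 CPM.

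The last list held partners of the members, such as receptors of osteopontin, enzymes that make hyaluronan and proteins that anchor keratins. Of its 23 tested genes, 19 had a positive log2 fold change, as did 7374 of all 14611 genes tested. The median was 0.52, beside 0.0095 for all tested genes. By the unadjusted rule 2 passed as higher and 0 as lower, or 6 and 1 without VHL-KO 4. Itgb3, the integrin chain that binds osteopontin together with the alpha V chain, was measured at 3.15, 4.26 and 4.21 CPM in VHL-KO-labelled libraries 1, 2 and 4, and at 8.87, 19.4 and 9.35 CPM in VHL-KO;SETD2-KO-labelled libraries 2, 3 and 4 (log2 fold change 1.70, SE 0.47, adjusted p = 0.625). Dsp, which encodes desmoplakin, the protein that ties keratin filaments to desmosomes, was measured at 6.67, 9.07 and 7.01 CPM against 16.8, 29.3 and 19.6 CPM (log2 fold change 1.53, SE 0.40, adjusted p = 0.625). For both genes the lowest library of the VHL-KO;SETD2-KO label lay well above the highest of the VHL-KO label, and VHL-KO 4 lay within its own group. Epas1, which encodes the hypoxia-inducible factor HIF-2 alpha that VHL marks for degradation, also lay wholly higher (272, 320 and 125 CPM against 706, 365 and 534 CPM) and did not pass (adjusted p = 0.625). Endothelial markers summed to 1494, 1746 and 1411 CPM against 4213, 1394 and 3424 CPM, and their part in the Epas1 values was not tested.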

How the data were processed

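RNA-seq counts of PTECs from 6 libraries, 3 per label, were used. The replicates are named by the sample labels, and the study gives 3 mice per group, without saying which mouse gave which library. The authors deposited raw read counts per gene symbol. Their libraries were directional and paired-end, and the submitters' processing notes name HISAT2 2.0.4 and the build GRCm38. The counting program, the annotation and the use of strand are not given in the sources used here.

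From the deposited counts, CPM scaled by TMM and edgeR's quasi-likelihood test (edgeR 4.0.16, R 4.3.3) were computed after edgeR's filterByExpr had kept 14611 of 46095 genes. The model held the label alone, with Benjamini-Hochberg adjustment over all genes tested. A prior count of 2 was used for log2 CPM. The limit of detection was set at 3 counts, 0.159 to 0.281 CPM, for counting error only. Columns left unused numbered 0. Replicates of a label differed by more than sampling noise (chi-square per degree of freedom 13.2 or more), so none was counted as a repeat. The fits were tested on simulated counts.

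The members and lists were chosen with earlier results of these data known. Named genes were the members, Setd2, Vhl, Cdh16, the gene most like each member (mean log2 CPM of at least 1), genes of each list that passed the unadjusted rule or else the 2 with the smallest p, and up to 2 per direction with the largest fold change among those whose groups did not overlap, besides markers. Not every gene under this rule is reported here. The keratin ratio, Gm36026, Krt8-ps, Xist, the Y-linked genes, S100a8, S100a9 and the motif GGGCGG were chosen after values were seen. Of the damage response list, Ccn2 was listed as Ctgf and Ccn1 was not matched. Positions and exon lengths came from GENCODE vM21, and upstream windows from RefSeq for 7 of the 10 members. Clu, Vcam1 and Sox9 had no entry. Alternatives used DESeq2 1.42.0 and limma 3.58.1.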

Additional observations from a re-analysis of the deposited data

How the results depend on the processing

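Across the alternatives, 168 of the values that answer a comparison stayed within the limits set for a change and 87 moved. Of the single-gene values 143 were the same, 17 lost and 1 gained a call, 10 moved and 24 changed sign. Havcr1 and Spp1 stayed on the same side of 0 throughout, as did Krt8, Cdkn1a and Sox9, and the cause of the changes below was not tested.

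Leaving out each library in turn, 0 to 2 members passed the unadjusted rule as higher and 1 to 2 as lower (in either direction 2.56% to 15.4% of all tested genes did). From 1 to 3 members did not overlap and were higher, with 3 without VHL-KO 4, where 20.1% of tested genes did so. The median log2 fold change ran from -0.88 to 0.44. The lists then gave 1 to 8 higher and 0 to 1 lower genes for damage response, 1 to 4 and 0 to 3 for failed repair, 0 to 2 and 0 to 1 for p53 targets, and 2 to 6 and 0 to 1 for partners. The log2 fold change ran from -2.09 to 1.64 for Lcn2, from -0.84 to 1.42 for Clu, from -1.30 to 0.41 for Vcam1, from -0.48 to 1.62 for Cd44 and from -1.10 to 1.03 for Krt18. The upper ends for the median, Lcn2, Clu and Krt18, and the highest counts of higher genes in every list, came without VHL-KO 4.

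The settings added after the data were seen gave less weight to the libraries that stood apart. DESeq2 without VHL-KO 4 called 2 members higher (9.50% of all tested genes) and 1 lower (7.29%), and 2 higher with adjustment (3.56%). Its median was 0.43, with log2 fold changes of -0.46 for Cd44, 1.41 for Clu, 1.03 for Krt18 and 1.66 for Lcn2. In the same order, 11 and 1, 4 and 3, 2 and 0, and 6 and 1 genes of the lists were higher and lower, beside 9.50% and 7.29%. edgeR without VHL-KO 4 and VHL-KO;SETD2-KO 3 called 3 members higher (13.4%), and 2 higher (8.90%) and 2 lower (7.90%) with adjustment. It had 4 that lay wholly higher (32.7%), a median of 0.22, and 0.78 for Clu, 0.89 for Krt18 and 0.17 for Lcn2. The lists gave 11 and 1, 7 and 3, 6 and 1, and 10 and 1, beside 13.4% and 10.4% of all tested genes. limma-voom with quality weights called 2 members higher (14.5%), and 1 higher (9.94%) and 2 lower (8.25%) with adjustment. It gave a median of 0.43, and 0.86 for Clu, 0.93 for Krt18 and 0.39 for Lcn2. The lists gave 11 and 1, 8 and 3, 5 and 1, and 9 and 1, beside 14.5% and 10.5% of all tested genes.

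limma-voom called 0 members higher and 1 lower (6.22% of tested genes in either direction), with a median of 0.18, 0.30 for Clu, 0.062 for Krt18 and 1 gene of failed repair higher. DESeq2 on all libraries gave -0.0036 for Cd44, 2 genes of failed repair higher and 1 p53 target lower, and an adjusted p for 2 members only. RLE size factors gave -0.0029 for Cd44. Upper-quartile scaling gave 1, and no filter on low counts 2, genes of failed repair higher. At least 10 counts in every library removed Havcr1 and Lcn2, which left 1 member that passed and lay wholly lower, a median of -0.052 and 1 gene of failed repair higher. With the fold change alone, 5 members were lower.

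Replicate numbers 2 and 4 occur under both labels, but same-numbered libraries correlated at 0.16 and -0.32 in their deviations and no source ties them. With the replicate block, 0 members passed as higher and 0 as lower (1.01% of tested genes passed in either direction), and 0 genes of damage response and of partners were higher and 0 of failed repair lower. Depth limits Havcr1, Lcn2 and Sox9, which had as few as 3, 4 and 11 counts.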
